A study of Rattus norvegicus with 22 samples.

Results

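Txnip and 9 other genes of cellular redox control were measured in RNA from the nucleus accumbens (NAc) of 22 rats. The 10 genes were taken by exact symbol from the 17310 genes listed in the count files, and all 10 were found. Txnip was chosen by its higher level in the EtOH rats of experiment 1, so its values in that experiment are given as a description and without a test. The other members, Txn1, Txnrd1, Nfe2l2, Hmox1, Nqo1, Gclc, Gclm, Sod1 and Sod2, were chosen by function.

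Thioredoxin is a small protein that reduces oxidised cysteines in other proteins and is itself recharged by thioredoxin reductase with electrons from NADPH. Txnip, an alpha-arrestin whose transcription responds to glucose and to glucocorticoids, binds reduced thioredoxin and inhibits it. The transcription factor Nrf2, encoded by Nfe2l2, drives a separate antioxidant programme through antioxidant response elements, and Nqo1, Hmox1, Txnrd1 and the glutathione synthesis genes Gclc and Gclm are among its best known targets.

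The animals were male outbred Wistar rats, whose age is not given. Each library came from the dissected core and shell of the NAc of 1 rat, sequenced as PolyA+ RNA. In experiment 1, 5 EtOH rats had a bottle with 6 v/v % EtOH beside water for 8 weeks, and 5 water rats had water alone. In experiment 2, all 12 rats drank 6 v/v % EtOH for 4 weeks before and 2 weeks after a gavage period of 3 weeks, in which 6 rats received 2.5 g/kg EtOH by gavage 2 times a day and 6 received water by gavage. Experiment 2 therefore held no rat without EtOH, and its comparison was of extra EtOH on top of drinking. All rats were sacrificed directly after the EtOH bottles were removed. Strand was lost in the library protocol of experiment 1 but kept in that of experiment 2, so the experiments were fitted apart and no level was compared between them.

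The reads counted on genes came to 2962291 to 5247386 a rat in experiment 1, and 6713617 to 8765472 a rat in experiment 2. Markers of striatal projection neurons, the main neurons of the NAc, summed to between 2710 and 5383 CPM (counts scaled to a common library total) in experiment 1. In experiment 2 they summed to between 4330 and 8466 CPM. Markers of cortical glutamatergic neurons summed to between 189 and 773 CPM in experiment 1. In experiment 2 the cortical sum varied widely between rats, from 5.57 to 554 CPM with water gavage and from 5.51 to 416 CPM with EtOH gavage. Experiment 2 was the noisier: its common biological coefficient of variation was 31.3% against 11.1% in experiment 1, and its first principal component held 74.0% of the variance against 26.0%. The outside share is the percentage of reads assigned to no gene, among these and the reads counted on genes. Counting options are not given, so such reads may lie outside genes, in introns or opposite a gene's strand. The outside share ran from 48.4% to 51.1% in experiment 1 and from 46.1% to 58.0% in experiment 2. EtOH gavage rats 1 and 2 were highest at 58.0% and 56.4%. In whole tissue, fewer cells of a type and less RNA per cell cannot be told apart.

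Txnip was higher on average in the EtOH rats of experiment 1. In normalized counts, which are counts scaled to the mean library size of the experiment, the 5 water rats had 257, 306, 315, 226 and 385, with a mean of 298 ± 60.9 (SD, n = 5). The 5 EtOH rats had 328, 435, 526, 550.1 and 469, with a mean of 462 ± 87.5 (SD, n = 5). Of the EtOH rats, 4 of 5 lay above every water rat and EtOH rat 1 lay inside the water range, so the groups overlapped. The log2 fold change was 0.62 with a standard error (SE) of 0.14, a 1.54-fold difference, and it ranked 35 from the top among the 8655 genes tested. Leaving out each rat in turn gave log2 fold changes from 0.54 to 0.74, while a prior on the fold change in DESeq2 shrank it to 0.39.

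**Figure D1:**
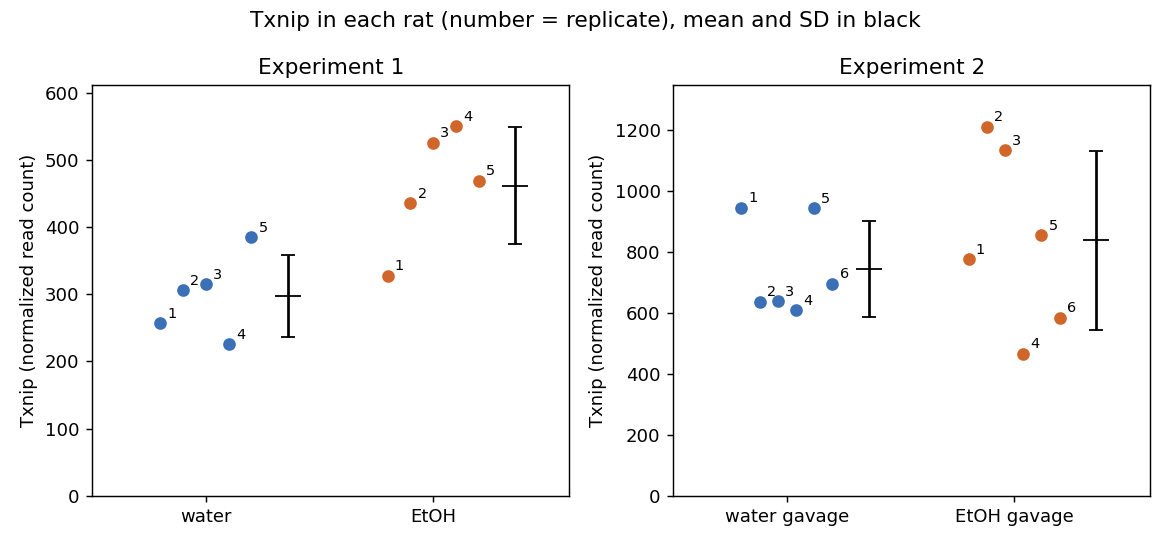
Txnip normalized read counts (vertical axis, from 0) of each rat by group in both experiments, numbered by replicate, with the group mean and SD in black. In experiment 1, 4 of the 5 EtOH rats lie above all water rats, and in experiment 2 the EtOH gavage rats spread from 465 to 1209 across the whole water gavage range of 608 to 943.

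In experiment 2, whose rats had no part in the choice of the gene, no difference in Txnip was detected. The water gavage rats ran from 608 through a median of 666 to 943 normalized counts, with a mean of 744 ± 157 (SD, n = 6). The EtOH gavage rats ran from 465 through a median of 814 to 1209, with a mean of 836 ± 294 (SD, n = 6). Of the EtOH gavage rats, rats 2 and 3 were above all controls and rats 4 and 6 were below all controls. The log2 fold change was 0.17 with an SE of 0.23 and a 95% interval from -0.32 to 0.66, and the adjusted p was 0.718 (edgeR quasi-likelihood fit, adjusted over all tested genes by Benjamini-Hochberg). The interval includes the value of experiment 1, and a difference between the experiments was not tested. Without EtOH gavage rat 2 the log2 fold change was 0.035, without rat 3 it was 0.064 and without rat 4 it was 0.29. Without both rats 1 and 2, an alternative added after seeing the data, it was 0.041.

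Within groups, Txnip followed the markers of neuroblasts, the migrating young neurons of the subventricular zone, in experiment 1. The summed level of Dcx, Dlx1, Dlx2 and Sox11 was between 176 and 234 CPM in the water rats. In the EtOH rats it was between 236 and 335 CPM, and the groups did not overlap. The markers with most reads were Dcx, a microtubule protein of migrating neurons, and Dlx1, a homeobox factor of GABAergic precursors. Dcx and Dlx1 were among the leading genes of the study in this contrast. Neither the direction of the list nor the separation of the groups is therefore independent evidence, and no test of the groups is given. Over the 10 rats of experiment 1, with group means removed, Txnip and this sum had Pearson's r = 0.90 (permutation p = 0.00072, adjusted p = 0.00792 over 11 marker lists) and Spearman's rho = 0.93 (permutation p = 0.00048, adjusted p = 0.00528). Without the 2 rats farthest from the median sum, r was 0.92. This relation was added after seeing the data. It uses the rats whose contrast chose Txnip and had Dcx and Dlx1 among its leading genes, so its p is a description and not independent evidence. By the size of r with this sum, Txnip ranked 11 of the 8655 genes tested, the markers among them, and 8.04% of all genes had an unadjusted permutation p under 0.05.

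In experiment 2 the relation had the same sign and did not pass the test. Over the 12 rats, r was 0.60 (permutation p = 0.0716, adjusted p = 0.263 over 11 lists), rho was 0.60 (permutation p = 0.0672, adjusted p = 0.247), and r was 0.54 without the 2 rats farthest from the median sum. There 39.8% of all genes had an unadjusted permutation p under 0.05 with the sum, and 42.6% had an r of larger size than Txnip. The neuroblast sum was between 125.8 and 258.9 CPM in the water gavage rats and between 142 and 325 CPM in the EtOH gavage rats, and the groups overlapped. With the neuroblast sum as a covariate, an alternative added after seeing the data, the log2 fold change of Txnip was -0.02 in experiment 1 and -0.12 in experiment 2. In experiment 1 the sum was higher in every EtOH rat than in every water rat, so it and the EtOH group cannot be told apart in that fit. Of the single markers, Dcx had r = 0.73 with Txnip in experiment 1 and 0.59 in experiment 2, while Dlx1 had 0.79 and -0.14. Dlx2 had 0.73 and -0.54, and Sox11 had 0.47 and 0.35, both below the filter on low counts. Mean normalized counts in experiment 2 were 1345 for Dcx, 187 for Dlx1, 3.87 for Dlx2 and 11.2 for Sox11. Most reads of the sum there were thus from Dcx, and its r was mainly that of 1 gene.

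**Figure D2:**
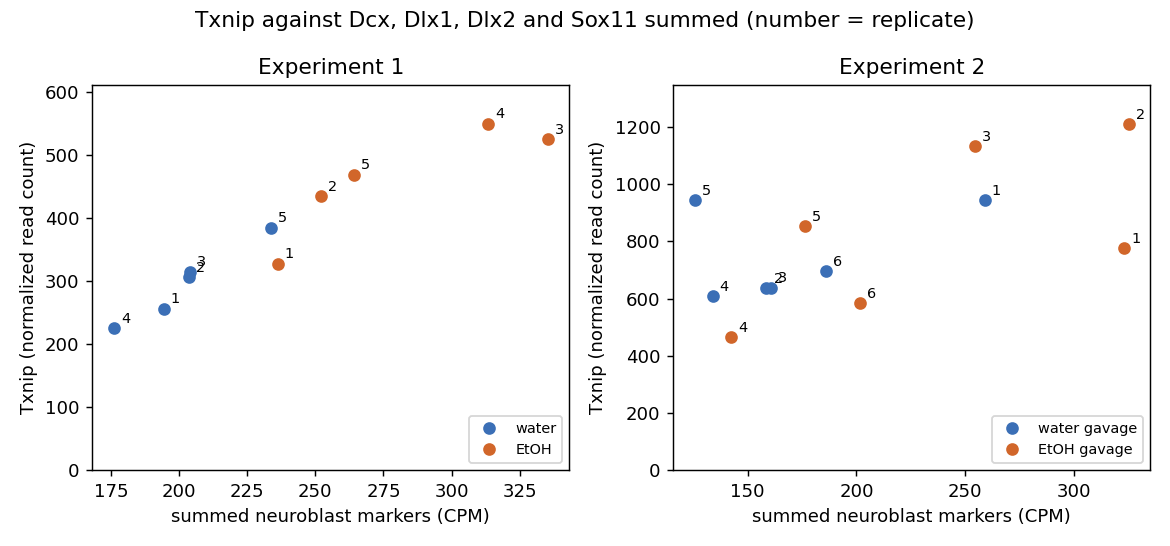
Txnip normalized read count (vertical axis) against the summed CPM of Dcx, Dlx1, Dlx2 and Sox11 (horizontal axis) in each rat, numbered by replicate and coloured by group. In experiment 1 the rats fall along a rising line within both groups (r = 0.90 with group means removed), and in experiment 2 they scatter more widely (r = 0.60).

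The 5 tested genes whose pattern was most like that of Txnip over the 10 rats of experiment 1, by Pearson's r with group means removed, were Kif27, Esd, Creld2, Trmt1 and Drc1. Their r in experiment 1 lay between 0.92 and 0.97, values that the choice itself fixed. In experiment 2, which the choice did not use, r with Txnip was 0.65 for Kif27, 0.45 for Esd, -0.10 for Creld2, -0.57 for Trmt1 and -0.20 for Drc1. Kif27, a kinesin of motile cilia, came nearest, with rho = 0.66 and a permutation p of 0.0347. Over the 5 genes the adjusted permutation p ran from 0.172 to 0.715, so none passed. Without the 2 rats farthest from the Txnip median, r for Kif27 was 0.55.

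No difference was detected in thioredoxin or its reductase. Txn1, the cytosolic thioredoxin that Txnip binds, had 193, 164, 157, 119 and 158 normalized counts in the water rats of experiment 1 and 174, 163, 216, 164 and 185 in the EtOH rats. Only EtOH rat 3 was above all controls, water rat 4 was the lowest, and the groups overlapped. The log2 fold change of Txn1 was 0.19 (SE 0.12) in experiment 1 (adjusted p = 0.911) and -0.16 (SE 0.17) in experiment 2 (adjusted p = 0.684, both edgeR). In experiment 2 Txn1 ran from 189.5 through 207 to 272 in the water gavage rats and from 154 through 192 to 283 in the EtOH gavage rats, whose rat 5 was the highest of all 12. Without that rat the log2 fold change of Txn1 was -0.29, without rat 1 it was -0.09 and without water gavage rat 4 it was -0.09. Txnrd1, the cytosolic reductase that recharges thioredoxin, had 515, 419, 481, 549 and 546 in the water rats and 475, 476, 517, 507 and 457 in the EtOH rats, all of which lay inside the water range. Its log2 fold change was -0.04 with a 95% interval from -0.21 to 0.12 in experiment 1. In experiment 2 it was -0.07 with an interval from -0.26 to 0.13, over 719.9 to 885 in the water gavage rats and 714 to 818 in the EtOH gavage rats.

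Of the Nrf2 branch, no member passed the test either. Nfe2l2, which encodes Nrf2, had 190.2, 179.8, 173, 123 and 179 normalized counts in the water rats and 143, 156, 210.0, 198 and 198 in the EtOH rats of experiment 1, for a log2 fold change of 0.10 (SE 0.13). EtOH rats 3, 4 and 5 were above all water rats, and water rat 4 was the lowest of the 10. In experiment 2 the water gavage rats ran from 297 through 377 to 587 and the EtOH gavage rats from 321 through 471 to 709, for a log2 fold change of 0.30 (SE 0.22, adjusted p = 0.675 in edgeR). EtOH gavage rats 1 and 2 had the highest Nfe2l2 of all 12 rats, and the log2 fold change was 0.18 without rat 1, 0.22 without rat 2 and 0.03 without both. Nqo1, a quinone reductase and a common readout of Nrf2 activity, had 50.8, 66.8, 64.9, 48.6 and 61.4 in the water rats and 84.5, 74.0, 87.7, 69.8 and 52.0 in the EtOH rats. For Nqo1, 4 of 5 EtOH rats were above all water rats and rat 5 was inside their range. The log2 fold change of Nqo1 was 0.32 (SE 0.16, 95% interval from -0.02 to 0.66, adjusted p = 0.866 in edgeR) in experiment 1. In experiment 2 it was 0.06 (SE 0.25), with water gavage rat 5 the highest of all at 259, and it was 0.285 without that rat.

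Hmox1, the inducible haem oxygenase, was the member with the fewest reads and did not pass the filter on low counts in either experiment. Its raw counts were 6, 26, 27, 12 and 45 in the water rats and 11, 16, 24, 18 and 22 in the EtOH rats of experiment 1, and between 4 and 48 in experiment 2. In the fit without the filter, the log2 fold change of Hmox1 was -0.18 (SE 0.31) in experiment 1 (adjusted p = 0.962) and -0.52 (SE 0.45) in experiment 2 (adjusted p = 0.702, both edgeR). The lowest rats of experiment 2 were EtOH gavage rat 1 with 4 reads and water gavage rat 1 with 9. The 95% intervals of Hmox1 ran from -0.83 to 0.47 and from -1.48 to 0.44. In each experiment the interval held the log2 fold changes of the other members, except that of Txnip in experiment 1 (0.62).

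Gclc and Gclm encode the catalytic and the modifier subunit of glutamate-cysteine ligase, the first enzyme of glutathione synthesis. Gclm was lower on average in the EtOH rats of experiment 1, with 95.1, 78.1, 112, 110.2 and 86.6 normalized counts in the water rats and 54.6, 71.0, 86.0, 74.9 and 81.9 in the EtOH rats. EtOH rats 1, 2 and 4 were below every water rat, EtOH rats 3 and 5 lay inside the water range, and no EtOH rat reached the water median. The log2 fold change of Gclm was -0.38 (SE 0.15), with an unadjusted p of 0.0211 and an adjusted p of 0.861 in edgeR, so it failed the correction. Leaving out 1 rat gave between -0.44 and -0.29. In experiment 2 the sign was the opposite, with 194 through 224 to 307 in the water gavage rats and 166 through 296 to 410.3 in the EtOH gavage rats, for a log2 fold change of 0.32 (SE 0.20, adjusted p = 0.675 in edgeR). Of the EtOH gavage rats, rats 1, 2 and 3 were above all controls and rat 4 was below all of them, and the difference between the experiments was not tested. Without EtOH gavage rat 1 the log2 fold change of experiment 2 was 0.20, and without rats 1 and 2 it was 0.13.

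Gclc did not follow Gclm in experiment 1. It had between 371 and 434 normalized counts in the water rats and between 390.1 and 422 in the EtOH rats, with a log2 fold change of -0.01 and a 95% interval from -0.14 to 0.13. With group means removed, r between Gclc and Gclm was -0.13 over the 10 rats. In experiment 2 Gclc ran from 906 through 1011 to 1460 in the water gavage rats and from 833 through 1105 to 1597 in the EtOH gavage rats, for a log2 fold change of 0.17 (SE 0.17, adjusted p = 0.679 in edgeR). There the subunits varied together, with r = 0.89 over the 12 rats, the highest of all pairs of members, and EtOH gavage rat 1 was the highest and rat 4 the lowest for both. The log2 fold change of Gclc was 0.08 without EtOH gavage rat 1, 0.09 without rat 2, 0.26 without rat 4 and 0.28 without water gavage rat 1.

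The promoters of Gclm and Gclc are shown because these subunits covaried in one experiment and not in the other. Each window runs from 250 bases before to 50 bases after the RefSeq start on build GRCr8, printed 5′ to 3′ on the strand of the gene. Gclm lies on the plus strand at chr2:213031885-213032184 and Gclc on the plus strand at chr8:87510226-87510525. Capitals mark a match to TGACNNNGC, the core letters of the antioxidant response element, searched on both strands.
Gclm: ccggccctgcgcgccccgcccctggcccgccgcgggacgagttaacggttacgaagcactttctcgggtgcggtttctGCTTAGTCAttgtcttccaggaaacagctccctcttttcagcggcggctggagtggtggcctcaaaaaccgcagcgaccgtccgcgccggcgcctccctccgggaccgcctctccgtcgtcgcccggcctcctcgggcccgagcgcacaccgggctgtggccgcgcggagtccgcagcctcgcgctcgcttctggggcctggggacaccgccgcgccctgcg
Gclc: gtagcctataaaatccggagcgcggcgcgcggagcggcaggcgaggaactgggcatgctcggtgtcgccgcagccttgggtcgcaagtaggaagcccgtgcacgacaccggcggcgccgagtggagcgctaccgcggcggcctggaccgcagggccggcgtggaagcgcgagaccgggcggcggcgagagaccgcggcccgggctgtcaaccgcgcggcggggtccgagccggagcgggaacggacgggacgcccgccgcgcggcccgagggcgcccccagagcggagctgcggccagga
The Gclm window held 1 match, TGACTAAGC, on the minus strand with its leftmost base at -172 from the start, and the Gclc window held none. Promoters were matched for 8 of the 10 members, with a pair of windows for Txnrd1, and not for Txnip and Hmox1. The first Txnrd1 window, Nfe2l2 and Sod2 also held 1 match each, and the other Txnrd1 window, Txn1, Nqo1 and Sod1 held none. Of all 33469 promoter windows of this length, 12.1% held a match, and 6.42% held the E-box CACGTG on either strand, of which no member window had one. A match is a run of letters and not a site. Bases farther than 250 before a start were not searched, so a window without a match does not show that its gene lacks the element. Any part of the matches in the covariation of Gclc and Gclm was not tested.

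Sod1 and Sod2, the cytosolic and the mitochondrial superoxide dismutase, were among the least variable members in experiment 1. Their coefficients of variation within a group were between 3.32% and 5.39%. Sod1 had 829.9 to 932 normalized counts in the water rats and 877 to 989 in the EtOH rats, with a log2 fold change of 0.06 and a 95% interval from -0.06 to 0.19. Sod2 had 633 to 686 and 654 to 733, with a log2 fold change of 0.04 and an interval from -0.08 to 0.16. In experiment 2 Sod1 ran from 1002 through 1077 to 1150 in the water gavage rats and from 806 through 923 to 1162 in the EtOH gavage rats. EtOH gavage rats 1, 2, 3 and 4 were below all controls and rat 5 was above them, and the log2 fold change of Sod1 was -0.17 (SE 0.10, adjusted p = 0.675 in edgeR). Sod2 differed by 0.09 (SE 0.12) on the log2 scale there, with one EtOH gavage rat, rat 1, above all controls.

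**Figure D3:**
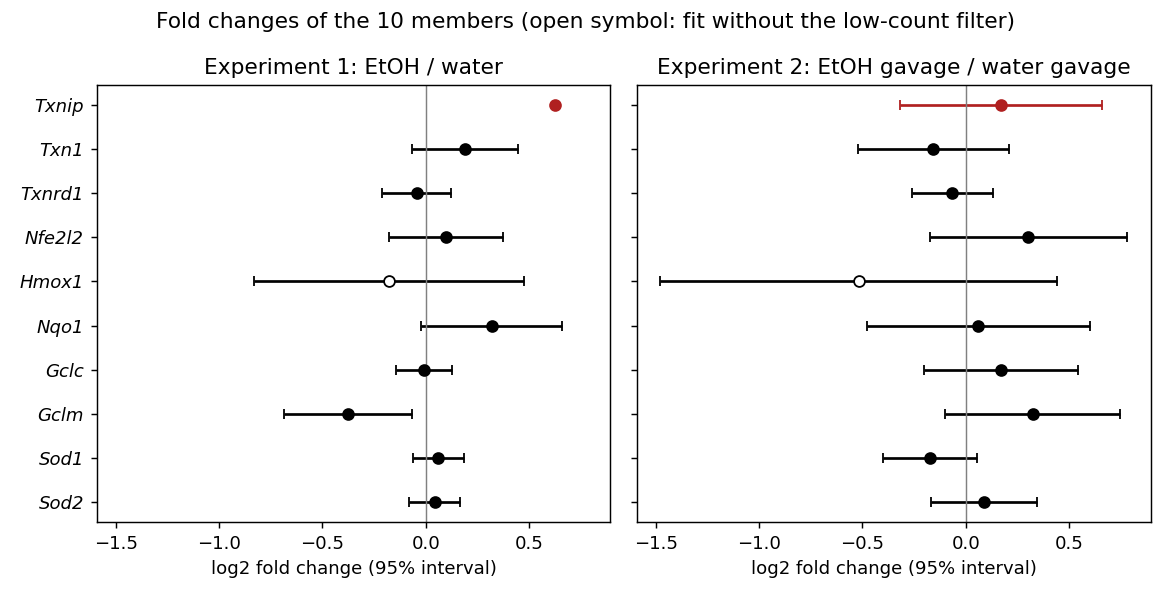
Log2 fold changes (horizontal axis) of the 10 members with 95% intervals, EtOH over water in experiment 1 and EtOH gavage over water gavage in experiment 2; open symbols come from the fit without the low-count filter, and Txnip is in red. Txnip in experiment 1 is drawn without an interval because that contrast chose it. In experiment 1 the interval of Gclm (-0.69 to -0.06) lies below 0, and in experiment 2 all intervals span 0.

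Of the 10 members, 9 passed the filter in each experiment. Leaving out Txnip, 0 of the 8 others in experiment 1 passed an adjusted p under 0.05 in edgeR and 0 in DESeq2, against 0% of all 8655 genes tested, and 1 of 8, Gclm, had an unadjusted p under 0.05, against 5.58% of all genes. In experiment 2, 0 of 9 passed in edgeR and 0 in DESeq2, against 0% of all genes, and 0 of 9 had an unadjusted p under 0.05, against 1.33% of all genes. No member had groups that did not overlap, against 0.843% of all genes in experiment 1 and 0.0116% in experiment 2. The median log2 fold change of the 8 others was 0.05 in experiment 1 and 0.07 in experiment 2, where the median of all genes was 0.00 in both. In either experiment 5 of these 8 were higher and 3 lower.

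**Figure D4:**
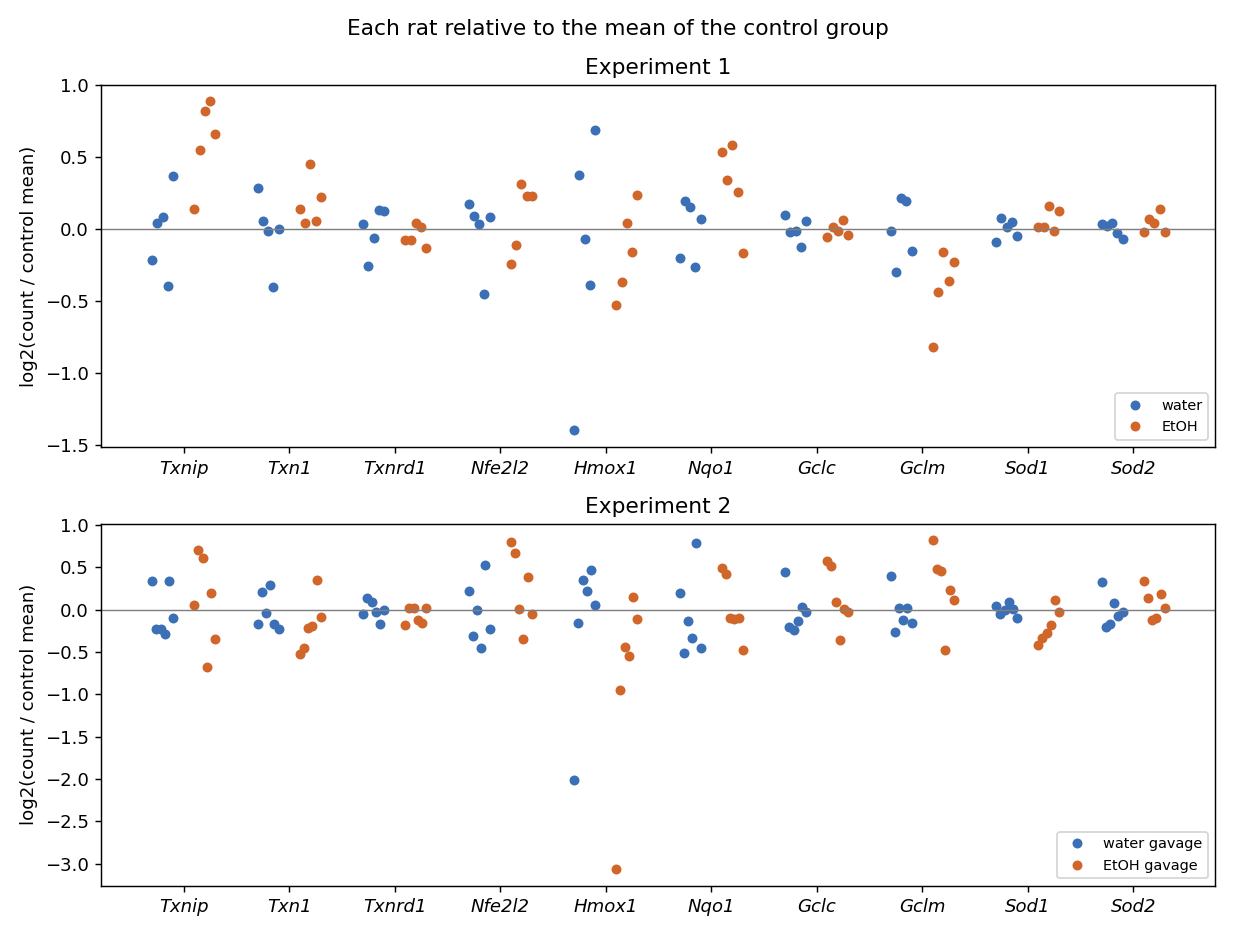
Log2 ratio of each rat's normalized count to the mean of its control group (vertical axis) for the 10 members, with blue points for controls and orange points for EtOH or EtOH gavage rats. In experiment 1, 4 of 5 EtOH rats lie above all water rats for Txnip and for Nqo1, and in experiment 2 the points of both groups spread more widely and overlap for every member.

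In experiment 2 most genes varied with a property of the libraries, the outside share, and the members did so about as often as all genes. With group means removed, 65.9% of the 8655 genes tested had a Pearson's r with that share at an adjusted permutation p under 0.05, adjusted over all genes, and 69.6% had an unadjusted one. Of the 9 members tested, 6 passed at either level, namely Gclc (r = 0.92), Nfe2l2 (0.80), Nqo1 (0.78), Gclm (0.78), Sod2 (0.72) and Txn1 (-0.74), with adjusted permutation p between 0.000551 and 0.0235 over the 12 rats. The median size of r over all genes was 0.78, and 17.3% of all genes had an r of larger size than Gclc.

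By Spearman's rho 4 of the 9 passed, against 54.6% of all genes. They were Gclc (rho = 0.94, adjusted permutation p = 0.00265), Gclm (rho = 0.84, adjusted permutation p = 0.00965), Txn1 (rho = -0.83, adjusted permutation p = 0.0113) and Nfe2l2 (rho = 0.70, adjusted permutation p = 0.0422). Txnip had r = 0.59 (adjusted permutation p = 0.0872) and rho = 0.64 (adjusted permutation p = 0.0716), and Txnrd1 (r = -0.44) and Sod1 (r = -0.49) did not pass either. Hmox1, outside the tested genes, had r = -0.72 and rho = -0.51 (unadjusted permutation p = 0.0108 and 0.118). Without the 2 rats farthest from the median share, r was 0.84 for Gclc, 0.62 for Gclm, 0.63 for Nfe2l2, 0.67 for Nqo1, 0.61 for Sod2, -0.54 for Txn1, -0.51 for Hmox1 and 0.61 for Txnip. In experiment 1, where the share varied less, 0 of the 9 members tested and 0% of all genes passed by r or by rho. At an unadjusted permutation p under 0.05 there were 0 members by r, against 8.56% of all genes.

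The share was 50.1% ± 3.09 (SD, n = 6) in the water gavage rats and 52.9% ± 3.42 (SD, n = 6) in the EtOH gavage rats (two-sided exact permutation test, p = 0.175). With the share as a covariate in experiment 2, the log2 fold change of Nfe2l2 went from 0.30 to 0.01 and of Gclm from 0.32 to 0.08. That of Txnip went from 0.17 to -0.03, of Gclc from 0.17 to -0.08 and of Nqo1 from 0.06 to -0.22. For Sod2 it went from 0.09 to -0.03, for Txn1 from -0.16 to 0.01 and for Txnrd1 from -0.07 to -0.03. Sod1 stayed lower, at -0.12 after -0.17. The 2 rats with the highest share were both EtOH gavage rats, so share and group are partly confounded in that fit. The part of either in these changes was not tested. What sets the share in a library was not tested. The 4 genes Nfe2l2, Nqo1, Gclc and Gclm had pairwise r between 0.54 and 0.89 in experiment 2, all positive, and between -0.40 and 0.66 in experiment 1. Txnip had r with Nfe2l2 of 0.75 in experiment 1 and 0.68 in experiment 2, and with Gclm of 0.25 and 0.72. These pairwise values share libraries and depth, and in experiment 2 the outside share that most genes followed, and are given as a description.

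**Figure D5:**
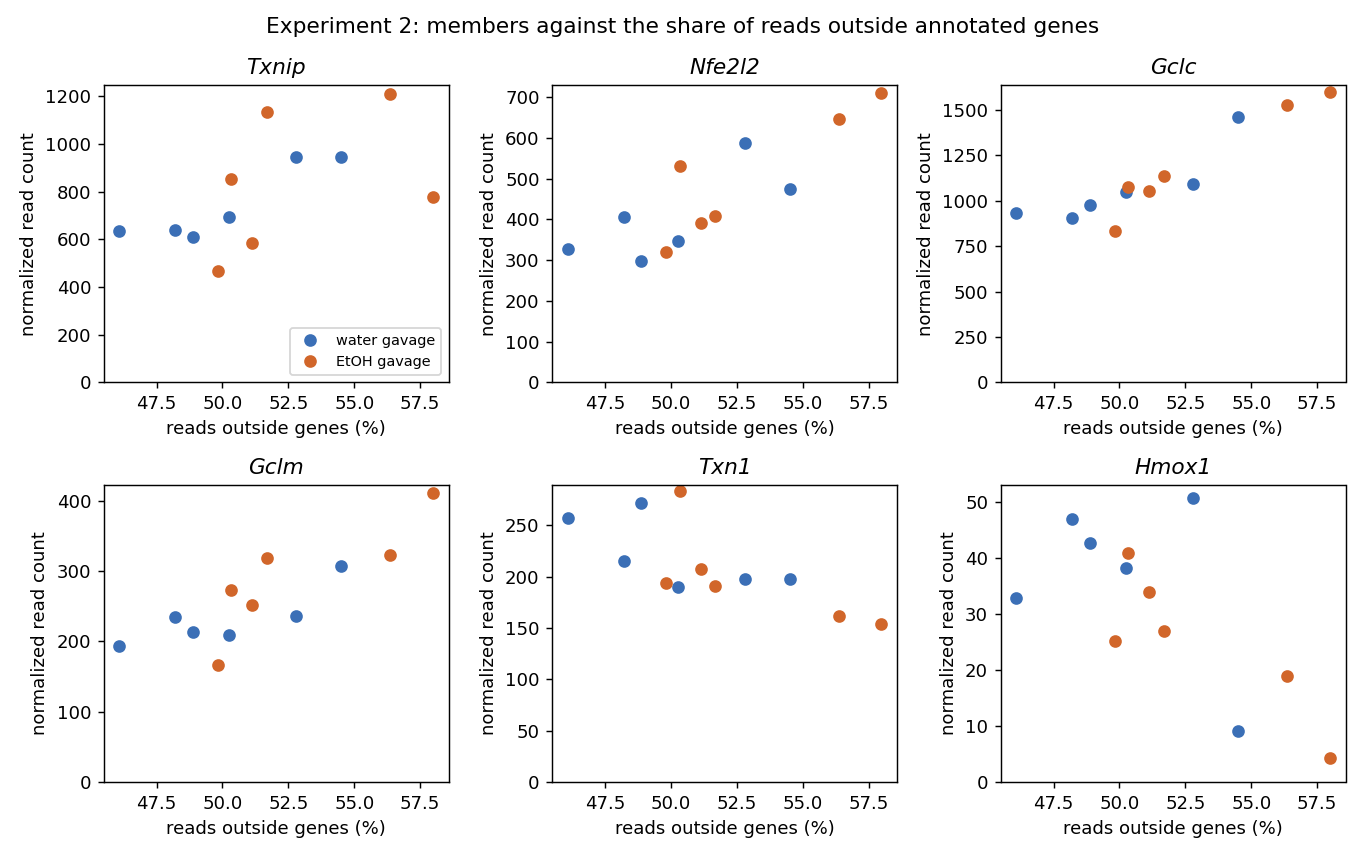
Normalized read counts (vertical axes, from 0) of 6 members in experiment 2 against the outside share (horizontal axes, reads assigned to no gene), coloured by group. As 65.9% of all genes varied with this share, the plots are a description. Gclc, Gclm and Nfe2l2 rise with it (r = 0.92, 0.78 and 0.80 with group means removed), Txn1 and Hmox1 fall (r = -0.74 and -0.72), and the EtOH gavage rats with 56.4% and 58.0% sit at the right end.

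The wider pathways showed no gene past the threshold. Over 7 lists of further redox, glucose and glucocorticoid genes, 69 genes were tested in experiment 1 and 72 in experiment 2, and 0 had an adjusted p under 0.05 in edgeR or in DESeq2. At an unadjusted p under 0.05 there were 3 in experiment 1, 4.35% of those tested, against 5.58% of all genes. In experiment 2 there was 1, or 1.39%, against 1.33% of all genes, so neither count stood out from all genes. In experiment 1 these were Txnrd3, a thioredoxin and glutathione reductase (log2 fold change -0.38, SE 0.17), Arrdc2, an alpha-arrestin related to Txnip (0.30, SE 0.14), and Gstm1, a glutathione transferase (0.20, SE 0.08). In experiment 2 it was Gstp1, another glutathione transferase (-0.34, SE 0.15). Their adjusted p in edgeR ran from 0.675 to 0.866.

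By list, the thioredoxin and peroxiredoxin genes had a median log2 fold change of -0.03 in experiment 1, with 7 of 19 higher, and of 0.13 in experiment 2, with 11 of 18 higher. The gene of that list with the lowest p in experiment 2 was Srxn1, the sulfiredoxin that repairs peroxiredoxins (0.56, SE 0.35). Of the alpha-arrestins, the family of Txnip, 2 were tested and had a median of 0.14 in experiment 1 and 0.39 in experiment 2, led in the latter by Arrdc3 (0.59, SE 0.51). The glutathione list had a median of -0.01 with 6 of 13 higher in experiment 1 and -0.15 with 5 of 16 higher in experiment 2. Regulators and targets of Nrf2 had a median of 0.03 with 8 of 14 higher and then -0.19 with 3 of 14 higher, where Mafk, a partner of Nrf2, led in experiment 1 (0.20, SE 0.13) and Keap1, its inhibitor, in experiment 2 (-0.43, SE 0.27). None of these leading values passed the correction.

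Superoxide and peroxide enzymes had a median of -0.09 with 0 of 4 higher in experiment 1 and -0.36 with 1 of 5 higher in experiment 2. Their leading genes were Hmox2, the constitutive haem oxygenase (-0.08, SE 0.07), and Sod3, the extracellular superoxide dismutase (-0.44, SE 0.23). The remaining lists hold genes of glucose handling, not chosen as responders to glucose, and genes that respond to glucocorticoids. Genes of glucose sensing and uptake had a median of -0.04 with 3 of 8 higher and -0.03 with 3 of 7 higher, led by Hk2, a hexokinase (-0.25, SE 0.19), and Slc2a1, the glucose transporter of the blood-brain barrier (-0.30, SE 0.22). Glucocorticoid responsive genes had a median of 0.08 with 7 of 9 higher and 0.36 with 9 of 11 higher. Tsc22d3, which encodes the glucocorticoid-induced leucine zipper, led that list in both experiments (0.17, SE 0.13, and 0.57, SE 0.42). The medians of all genes were 0.00 in both experiments, and 49.5% and 50.1% of all genes were higher. In experiment 2, 50% of all genes lay between -0.24 and 0.16, and most genes varied with the outside share. The part of that share in the list values was not tested.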

How the data were processed

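PolyA+ RNA-seq libraries of 22 rats were analysed, each a separate animal. Per the labels and the study's methods, the authors aligned reads to rn6 with TopHat2 2.0.13, counted them per gene with HTSeq (0.5.3p3 and 0.6.0 are both named in the submitters' processing notes) and deposited raw counts without normalization. The counting options and annotation are not given in the sources used here. Multiply aligned reads were not counted, so members with near-identical copies may be undercounted, and in experiment 1 reads of overlapping genes on opposite strands cannot be told apart. The 5 summary lines of each file, which held 76.0% to 78.3% of the reads in experiment 1 and 68.2% to 76.3% in experiment 2, were left out. No gene lengths were used, so levels were not compared between genes.

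Each experiment was fitted on its own by the quasi-likelihood functions of edgeR 4.0.16 under R 4.3.3 (TMM factors, estimateDisp, then glmQLFit in legacy mode and glmQLFTest), and p-values were adjusted by Benjamini-Hochberg over all 8655 genes whose base mean exceeded the median of the 17310 listed genes (43.6 and 66.4). Each SE is the log2 fold change divided by the square root of F. Normalized counts are scaled to the mean effective library size. Correlations used log2 CPM (prior count 2) less the group mean, with 100000 permutations of rats within groups, two-sided. They were run against the outside share or the log2 of summed marker CPM. Relations with that share were adjusted over all tested genes, and both kinds of relation were added after seeing the data. The members, 7 pathway lists and 11 cell type marker lists were chosen with earlier results of these data known. The genes named are the members, the gene with the lowest p of each pathway list in each experiment and the 5 genes most like Txnip in experiment 1; single markers are named beside the neuroblast sum. Alternatives were DESeq2 1.42.0 with and without a prior on the fold change, its size factors in edgeR, other filters, the newer mode of glmQLFit, a replicate block, covariates and each rat left out. The fits were tested on simulated data. Promoter sequences are from RefSeq.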

Additional observations from a re-analysis of the deposited data

Results flagged for a closer look

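Among the 40 groups of 5 or 6 rats formed by the 10 members, 3 held a rat far from the others by Dixon's criterion, where chance gives about 2. Nfe2l2 in water rat 4 of experiment 1 was at 123.4 normalized counts, while the other water rats lay between 172.9 and 190.2, and without this rat the log2 fold change went from 0.10 to 0.01. Gclc in water gavage rat 1 of experiment 2 was at 1460 normalized counts, above the 905.8 to 1093 of the others, and the log2 fold change went from 0.17 to 0.28 without it, while it fell to 0.08 without EtOH gavage rat 1. Gclm in the same rat was at 306.7, above 193.6 to 235.7, and its log2 fold change went from 0.32 to 0.42. That rat had the highest outside share of the water gavage group, 54.5%, and the part of this share in its Gclc and Gclm values was not tested.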

How the results depend on the processing

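Txnip in experiment 1 was left untested. No other member result and no pathway list gene passed an adjusted p under 0.05 in any alternative that fitted it, by edgeR or DESeq2. Hmox1 was fitted in only 3 alternatives per experiment. Of 467 alternative values, 441 were scored as unchanged. For the other fold changes and for correlations this meant the same sign and side of the threshold. For Txnip in experiment 1 it meant a shift smaller than the pooled SD of rats within groups. Counts of genes called were scored by whether the count changed. With the neuroblast sum as a covariate, added after seeing the data, log2 fold changes in experiment 1 were -0.0197 for Txnip, -0.0397 for Txn1 and -0.352 for Nfe2l2, and in experiment 2 -0.124 for Txnip, 0.0126 for Txn1, -0.0624 for Nqo1, -0.129 for Gclc, -0.00445 for Gclm and -0.0203 for Sod2. With the outside share as a covariate they were, in experiment 2, -0.0349 for Txnip, 0.00633 for Txn1, -0.224 for Nqo1, -0.0842 for Gclc and -0.0256 for Sod2. Without EtOH gavage rats 1 and 2, also added after seeing the data, Nqo1 was at -0.175 and Gclc at -0.0512. Leaving out single rats moved Gclc in experiment 1 from -0.0359 to 0.0149 and Nqo1 in experiment 2 from -0.0384 to 0.285. Without the 2 rats farthest from the Txnip median, r was 0.00232 for Creld2 and 0.0725 for Drc1. The cause of these reversals was not tested. Same-numbered rats did not deviate together throughout (r from -0.13 to 0.14 in experiment 1 and from -0.76 to 0.84 in experiment 2). Closest to their own number were 2 of 10 and 1 of 12 rats, and the rats were fitted as unpaired. In experiment 2 the first principal component held 74.0% of the variance, so these r cannot exclude a pairing there. With the replicate number as a block (replicate block), the log2 fold change of Txnip was 0.629 and 0.112, and the genes at an unadjusted p under 0.05 went from 483 to 476 and from 115 to 414. That count was 820 and 286 with no filter (14024 and 14121 genes tested), 632 and 315 in DESeq2, 634 and 178 with filterByExpr, 368 and 28 with the neuroblast sum, 380 to 743 and 28 to 776 with 1 rat left out, and 23 without EtOH gavage rats 1 and 2. Hmox1 had 4 to 48 reads per rat, and its spread between rats was 21.4% to 50.3% of the group mean.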

Other observations

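Of the 11 cell type marker lists, oligodendrocyte precursor markers (Pdgfra and Cspg4) also did not overlap between the groups of experiment 1. They were at 202 to 232 CPM in the water rats and 234 to 279 CPM in the EtOH rats. Pdgfra was a leading gene of the study in this contrast, so the separation is not independent evidence and no test of it is given. Endothelial markers were at 208 to 248 CPM and 247 to 274 CPM (exact permutation test, p = 0.0159, unadjusted). The other 8 lists besides neuroblasts (striatal and cortical neurons, astrocytes, oligodendrocytes, microglia, mural cells, ependyma and red blood cells) had exact permutation p from 0.0794 to 0.722 in experiment 1. In experiment 2 all 11 lists had p from 0.104 to 0.972 in the same exact permutation test. Besides neuroblasts, 0 of the other 10 lists had an adjusted permutation p under 0.05 for a relation with Txnip within groups in experiment 1, and 0 of 11 did in experiment 2. The lowest unadjusted one of these 10 in experiment 1 was that of striatal projection neurons (r = -0.67, permutation p = 0.0575, adjusted p = 0.316). Their rho was -0.76 (permutation p = 0.0243, adjusted p = 0.134), and their r in experiment 2 was -0.006. The lowest unadjusted permutation p of experiment 2 was that of microglia (r = -0.63, rho = -0.72, permutation p = 0.0305, adjusted p = 0.263). Col1a2, listed among the mural markers, was at 0 in every library, and Hbb-b1, a haemoglobin gene, was at 0 in those of experiment 1.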
